A study of Mus musculus with 12 samples.

Results

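Plp2, Praf2, Wdr45, Gpkow, Timm17b, Porcn and Wdr13 are 7 protein-coding genes that lie around Tfe3 near one end of the mouse X chromosome. They were followed through single-base variants covered by at least 20 reads whose gene column named one of them, in all 12 deposited tables. This took 132 of the 6062 sites that named a gene, and 7 of the 444 genes. Per library, 30 to 108 of these sites were listed. The measure is the reference share, the percentage of the reads over a gene's sites that lacked the listed variant. The genes were selected on these shares, as neighbours of Tfe3 whose reads had been seen to shift towards the reference allele, so the differences of reprogrammed cells from fibroblasts, and of MidK1 from LowK, are given below as sizes and counts, with no p-value, and support nothing about the choice of the genes.

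Poly(A) RNA was sequenced from embryonic mouse fibroblasts (MEF) and from such cells after infection with SeVdp(fKOSMaB), a Sendai virus vector that carries reprogramming factors. MEF1 and MEF2 were fibroblasts at day 0, with no vector and no agent. LowK cells received the vector without Shield1 and were sampled at days 35, 52 and 56, and MidK1 cells received it with 30 nM Shield1 and were sampled at the same days. MidK2 cells received the vector with 30 nM Shield1 and were sampled at days 18, 22, 29 and 36. Shield1 is a small ligand that protects proteins bearing a destabilising domain from degradation. Each course and day is 1 library, so no spread between cultures was measured, and every test below compares the reads of 2 libraries. A read over several nearby sites was counted at each, so intervals over several sites are too narrow. The sources used here do not give the strains, the sex of the embryos, the parental origin of each X chromosome or the relation between MEF1 and MEF2.

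In female mammals most genes of one X chromosome are silenced, and the silent state is undone when cells are reprogrammed to pluripotency. Where the 2 X chromosomes differ in sequence and the same one is silent in most cells, RNA reads over a variant show how much each copy is transcribed. Tfe3 encodes a transcription factor of lysosome formation that also takes part in leaving pluripotency. The genes around it have unrelated roles. Plp2 and Praf2 encode small membrane proteins, Wdr45 a phosphoinositide-binding propeller protein of autophagy, Gpkow an RNA-binding protein of the spliceosome, and Timm17b a subunit of the translocase of the inner mitochondrial membrane. Porcn encodes the acyltransferase that attaches a lipid to Wnt proteins in the endoplasmic reticulum, and Wdr13 a nuclear protein with WD repeats.

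The letters below are the mm10 reference around a coding site in each of 6 members, read from GENCODE M21 transcripts on the strand of the gene, because these sites are what separates the alleles. For each gene the coding site listed with 10 reads or more in the most libraries was taken, then the one with the most reads. The capital is the reference base at place 11 of 21, counted from the 5′ end, and the substitution gives the base of the variant allele.
Plp2: atacagcagcTcccactgacc
Praf2: ggtctgcgcgCctggcggctc
Wdr45: ttcgaagaggCaccgaccctg
Gpkow: ttgaaggctgCacagaatcag
Timm17b: aattccatcaGcagtggagcg
Wdr13: atgaaggcagCcctgtaacca
The Plp2 site lies at X:7668934 on the minus strand and its substitution is T11C. Its window runs across an exon junction. The Praf2 window is chrX:7728636-7728656, plus strand, with C11T. The Wdr45 window is chrX:7727053-7727073, plus strand, with C11T. The Gpkow window is chrX:7706070-7706090, plus strand, with C11T. The Timm17b window is chrX:7906151-7906171, plus strand, with G11C. The Wdr13 window is chrX:8127899-8127919, minus strand, with C11T. The sites of Porcn were all in untranslated sequence and none is printed.

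At the single bases described here the share was higher in MidK1 than in LowK. The Plp2 base was reference in 14.3% of 28 reads in MEF1, 30.6% of 49 in LowK day 56 and 87.5% of 264 in MidK1 day 56. The Gpkow base was reference in 0 of 14 reads in MEF1, 14.8% of 27 in LowK day 56 and 42.4% of 33 in MidK1 day 56. Its 14 reads in MEF1 are under the minimum of 20, and over the 4 sites inside the minimum Gpkow had 11.6% of 86 reads there. The Timm17b base moved less, from 10% of 20 reads in MEF1 to 13.3% of 45 in LowK day 56 and 34.3% of 35 in MidK1 day 56. The Wdr45 base was covered by 20 reads in MEF1 and in MidK1 day 35, just inside the minimum, and was reference in 0 and 60% of them. It was covered by 15 reads in LowK day 56, just outside the minimum, of which 13.3% were reference.

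In order of position, the members lie on the X chromosome of mm10 with Plp2 at 7667941 to 7671390 on the minus strand, Gpkow at 7697131 to 7710262 on the plus strand, Wdr45 at 7714333 to 7728206 on the plus strand and Praf2 at 7728439 to 7731064 on the plus strand. Beyond Tfe3 follow Timm17b at 7899357 to 7908351 on the plus strand, Wdr13 at 8123301 to 8132892 on the minus strand and Porcn at 8193848 to 8206525 on the minus strand. Plp2 had 7 sites, of which 4 were coding, 2 untranslated and 1 intronic. Gpkow had 42 sites, 17 of them coding and the rest untranslated. Wdr45 had 12 sites, 10 of them coding. Praf2 had 15 sites, 6 of them coding. Timm17b had 20 sites and Wdr13 had 31, with 3 coding sites each, and Porcn had 5. All 12 sites of Wdr45 and 6 of the 15 of Praf2 were also named Gm45208, a transcript that overlaps both genes. The library kit was directional, but whether variants were called by strand is not stated, so reads of Gm45208 cannot be told apart from those of Wdr45 or Praf2 there.

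Over the named sites the 12 tables held 135376 to 268313 covering reads each, with a median of 35 to 40 reads per site. The tables of MEF1, LowK and MidK1 listed no variant under 5 reads or 10% of the reads, and those of MEF2 and MidK2 none under 2 reads or 5%. A position at which every read is reference is not listed. Each reprogrammed library was therefore set against the MEF library of its own set of tables. Sites of a list of 12 genes typical of fibroblasts took 46.1 to 49.8% of the covering reads in the MEF libraries, where 10 to 12 of them were listed, and 3.56 to 5.83% in the reprogrammed libraries, where 6 to 8 were. Of a list of 15 genes of pluripotent or germline cells none was listed in MEF. Its member Nr0b1 was listed in no library, and Pou5f1 and Nanog lie on other chromosomes and cannot be seen here. The part of this shift in cell type in the results below was not tested.

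Plp2 had the highest reference share of the genes measured in every library other than LowK day 56, MEF2 and MidK2 day 22. Its interval overlapped that of the next gene in MEF1, LowK days 35 and 52, and MidK2 days 18 and 29. It stood clear of the next gene in the MidK1 libraries and in MidK2 day 36. The share of Plp2 was 14.3% (95% Wilson interval 5.7 to 31.5) in MEF1. LowK had 11.4% at day 35, 32.7% at day 52 and 31.9% at day 56. MidK1 had 72.7%, 85.0% and 80.5% at the same days. The 3 MidK1 values lay far above those of LowK, and their intervals did not reach them. They rest partly on different sites. The intronic base X:7668578 entered at days 35 and 56, with 3.70% of 27 and 8% of 25 reads, and not at day 52. Over the sites shared by neighbouring days Plp2 differed by 4.85 points (−1.29 to 11.6) from day 35 to day 52. From day 52 to day 56 it differed by −2.62 points (−7.86 to 2.71). MEF2 had 2.78% and MidK2 had 17.3% at day 18, 18.4% at day 22, 41.7% at day 29 and 68.9% at day 36 (interval 65.1 to 72.4). In MidK2 most of the difference between days 18 and 36 thus fell after day 22. Such shares come from pools of cells, so more cells that read the reference copy and more RNA from that copy per cell cannot be told apart.

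**Figure D1:**
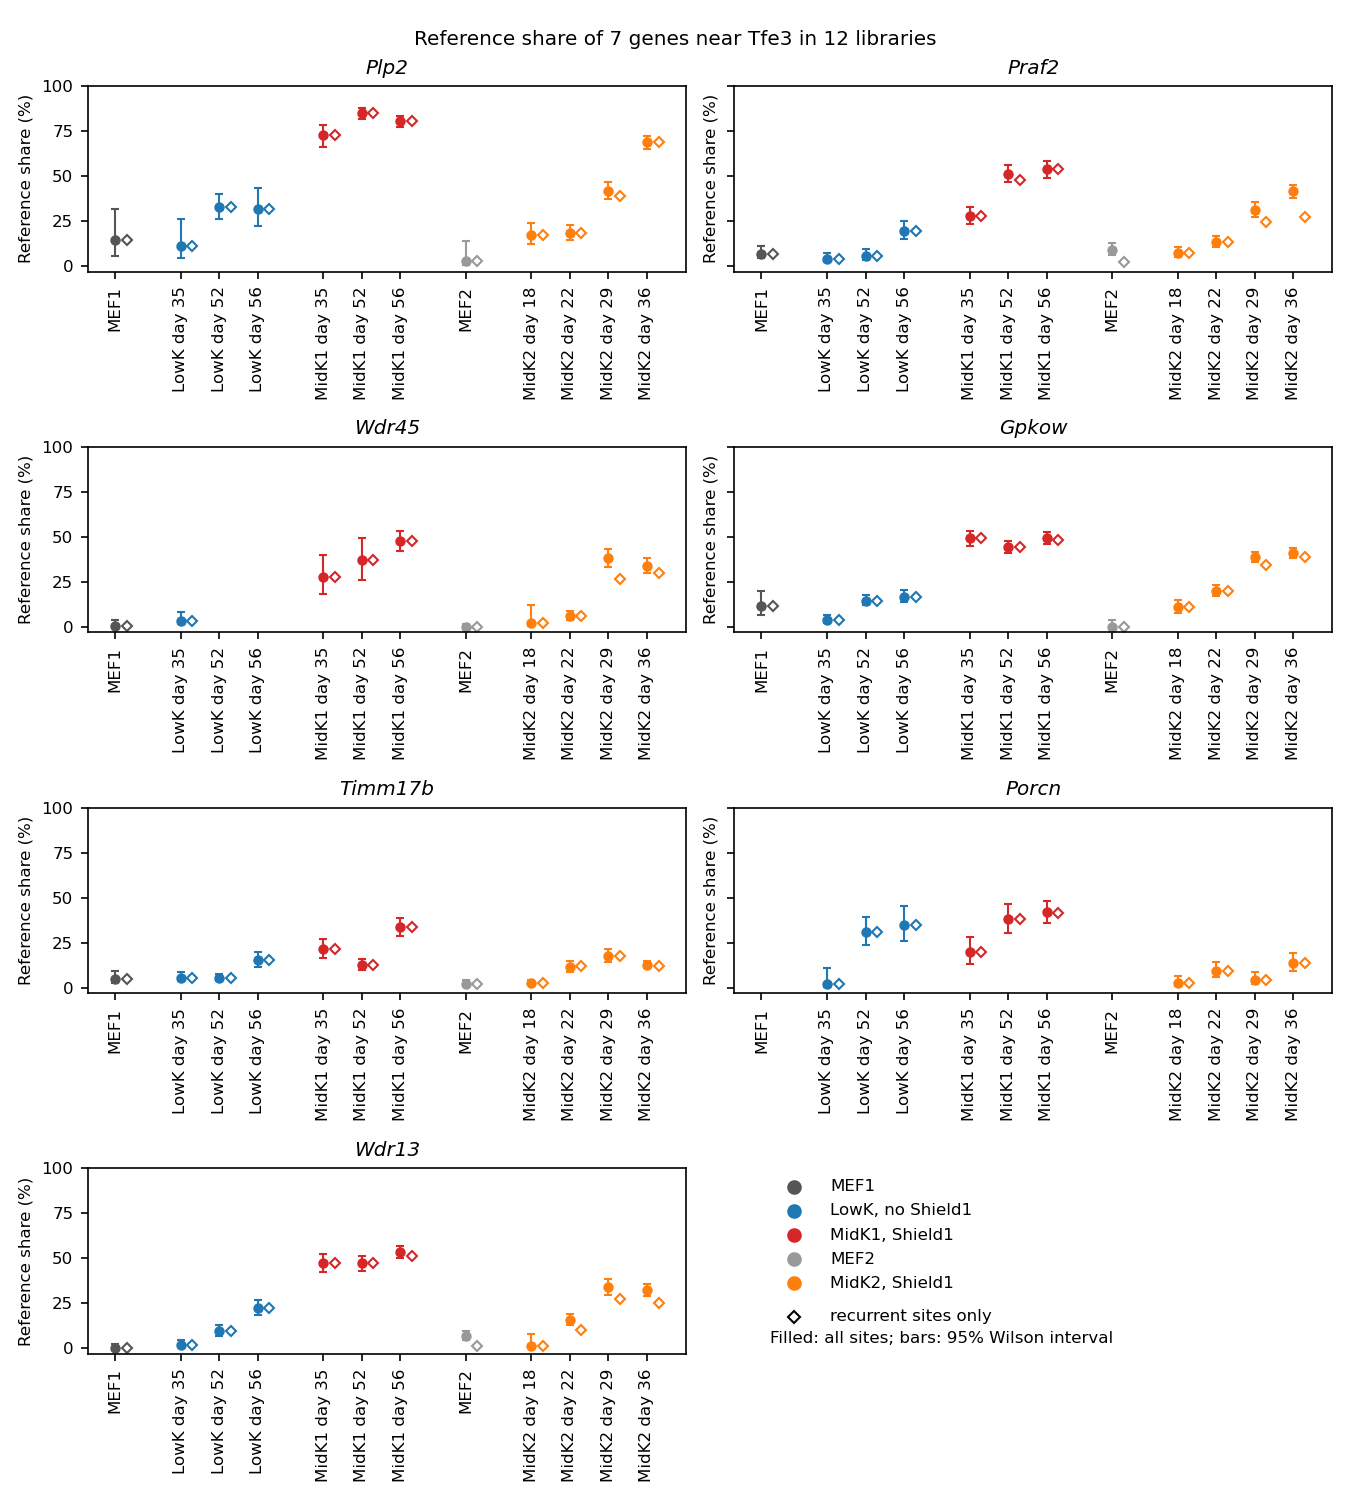
Reference share (%) of each of the 7 genes in each of the 12 libraries, ordered by course and day. Filled points are all sites with their 95% Wilson interval, and open diamonds are sites listed in at least 6 libraries. Plp2 stands highest at 72.7 to 85.0% in MidK1, Timm17b stays at or below 33.4% in all libraries, and the diamonds fall below the filled points mainly in MEF2 and MidK2 days 22, 29 and 36.

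At the most covered Plp2 site, the coding base printed above, variant reads varied less than reference reads among the libraries of the first set. Variant reads were 24 in MEF1, 31, 20 and 34 in LowK at days 35, 52 and 56, and 28, 29 and 33 in MidK1. Reference reads were 4 in MEF1, 4, 16 and 15 in LowK, and 113, 209 and 231 in MidK1. Coverage of the site therefore differed with the reference reads, from 28 in MEF1 to 264 in MidK1 day 56. In the second set variant reads were 35 in MEF2 and 71, 94, 76 and 82 in MidK2 at days 18, 22, 29 and 36, while reference reads were 1, then 11, 34, 60 and 157. Scaled to 1000000 reads over the 782 sites listed in all libraries of the first set, variant reads ran from 223 to 403 and reference reads from 50.4 to 2823. Scaled likewise over the 1123 such sites of the second set, variant reads were higher in MidK2 than in MEF2. They were 228 in MEF2 and 580, 714, 628 and 537 in MidK2 at days 18, 22, 29 and 36. Reference reads ran from 6.52 in MEF2 to 1029 in MidK2 day 36.

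**Figure D2:**
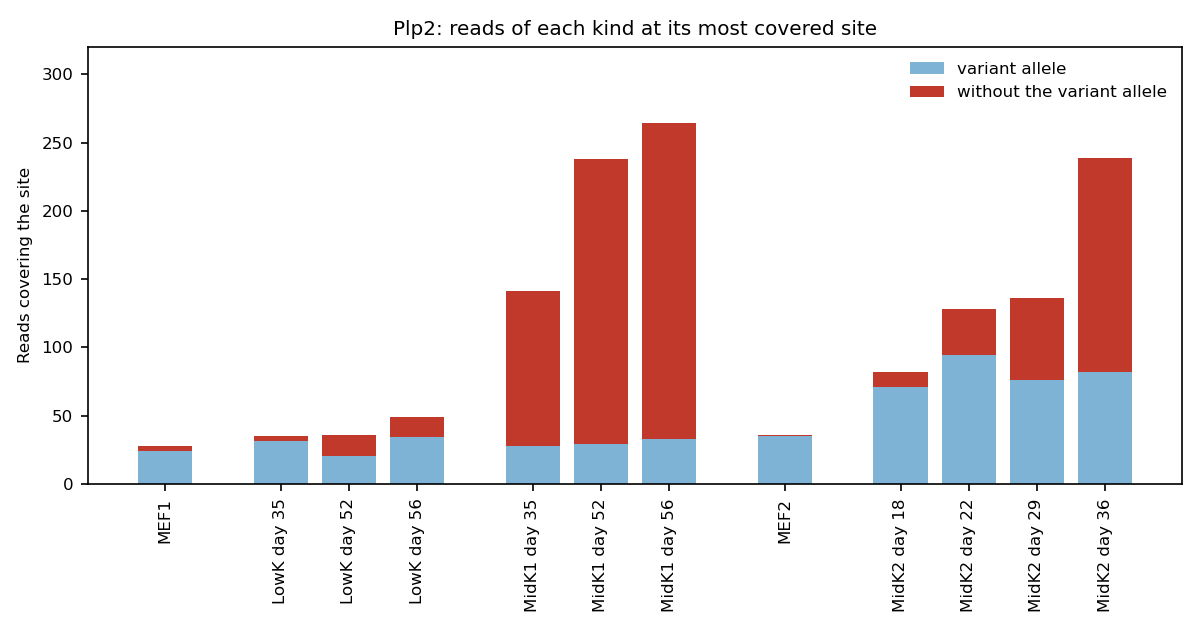
Number of reads covering the most covered Plp2 site in each library, split into reads with the variant allele (lower, blue) and reads without it (upper, red), not scaled for depth. In MEF1, LowK and MidK1 the blue part stays at 20 to 34 reads, and the red part reaches 231 in MidK1 day 56.

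The sites of Plp2 did not all share its level. The other coding bases at X:7669649 and X:7669662 had 72.4% of 76 and 71.0% of 69 reads in MidK1 day 56. The 3 recurrent intronic bases at X:7668578 to X:7668639, counting sites with 10 reads or more, were reference in 19.2% of 52 reads there, against 83.9% of 539 reads over the exonic sites. In MidK1 day 35 the intronic and exonic sites had 5.77% of 52 and 82.5% of 189 reads, and in MidK2 day 29 they had 17.0% of 53 and 41.0% of 376. In MidK1 day 52 they had 39.4% of 33 (24.7 to 56.3) and 85.0% of 473. The intronic bases thus had few reads and a lower reference share than the exonic ones in these 4 libraries. The groups were chosen after their values were seen, so they are described without a test. The 5′ untranslated base at X:7671247 was the highest in MidK1 day 56, at 90% of 130 reads. At that level the shares approach the ceiling of the first set of tables.

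Praf2 rose later than Plp2 in MidK1. Its share was 6.94% (4.25 to 11.1) in MEF1, 4.10%, 5.88% and 19.4% in LowK at days 35, 52 and 56, and 28.0%, 51.4% and 53.7% in MidK1. In the second set it was 9.09% in MEF2 and 7.23%, 13.4%, 31.2% and 41.5% in MidK2 at days 18, 22, 29 and 36. At each matched day the MidK1 interval lay above that of LowK. The LowK values of days 52 and 56 rest partly on different sites. Over the 4 sites shared by these days Praf2 had 4.65% of 215 and 11.0% of 136 reads. That difference was 6.38 points (0.760 to 13.1, Fisher's exact adjusted p = 0.156). The values in MidK1 day 52, MEF2 and MidK2 days 29 and 36 included sites listed in fewer than 6 of the 12 libraries. Praf2 had 6 such sites with 70.4 to 94.9% reference reads, each listed in 1 to 5 libraries. Over its other 9 sites the share was 47.6% in MidK1 day 52, 2.19% in MEF2, 24.6% in MidK2 day 29 and 27.0% in MidK2 day 36.

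Within Praf2 the sites also named Gm45208 and those named Praf2 alone differed in some libraries. In MidK1 day 56 they had 36.3% (29.4 to 43.8) and 63.6% (58.0 to 68.9) reference reads, and in LowK day 56 they had 7.45% (3.65 to 14.6) and 26.8% (20.4 to 34.3). In MidK2 day 36, over the sites that recur in at least 6 libraries, they had 27.0% of 222 and 27.1% of 329 reads. The first coding base, whose window is printed above, had 23.9% reference reads in MidK1 day 56, and the untranslated base at X:7730652 had 79.1%. These splits are descriptions, and no test was made.

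Wdr45 was almost entirely variant in fibroblasts, with 1 reference read of 143 in MEF1 (0.699%) and 0 of 252 in MEF2, which allows a share of up to 1.19%. It was 3.45% in LowK day 35 and had no site with 20 reads in LowK days 52 and 56. MidK1 had 27.9%, 36.9% and 47.6% at days 35, 52 and 56. MidK2 had 2.33%, 6.09%, 38.2% and 34.0% at days 18, 22, 29 and 36, or 26.6% and 29.9% on the last 2 days over recurrent sites. The MidK1 values at days 35 and 52 rest on 61 and 65 reads at 3 sites each.

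Gpkow was already near its final level in MidK1 at day 35. Its share was 11.6% (6.44 to 20.1) of 86 reads in MEF1, 3.73%, 14.5% and 16.8% in LowK, and 49.1%, 44.4% and 49.5% in MidK1 at days 35, 52 and 56. The MidK1 intervals lay between 41.1 and 53.2%, and those of LowK between 2.09 and 20.6%. In MEF2 it was 0 of 91 reads, which allows up to 3.30%. MidK2 had 11.0%, 20.1%, 38.7% and 41.1% at days 18, 22, 29 and 36, or 34.5% and 38.6% at days 29 and 36 over recurrent sites. In MidK1 day 56 it had the most reads of the 7 genes, 863 over 25 sites, and single sites ran from 32.3 to 83.3%.

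Timm17b stayed lowest or next to lowest in 5 of the 7 MidK1 and MidK2 libraries. It was 5.03% in MEF1, 5.45%, 5.17% and 15.1% in LowK, and 21.3%, 12.5% and 33.4% in MidK1. MEF2 had 2.19%, and MidK2 had 2.56%, 11.6%, 17.6% and 12.7%. The MidK1 value at day 52 lay below those at days 35 and 56, and the intervals of the 3 days did not overlap (16.5 to 26.9, 9.66 to 16.0 and 28.7 to 38.5). All 8 of its sites in MidK1 day 56 lay between 25.0 and 48.0%.

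Porcn had no site with 20 reads in either MEF library, so it was measured in the 10 reprogrammed libraries only. It was 2.04% of 49 reads in LowK day 35 and 31.0% and 34.8% at days 52 and 56. MidK1 had 19.6%, 38.0% and 42.0%. At days 52 and 56 the intervals of the 2 courses overlapped. MidK2 had 2.75%, 9.18%, 4.46% and 13.5% at days 18, 22, 29 and 36, and none of these intervals reached above 19.4%.

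Wdr13 was 0 of 148 reads in MEF1, which allows up to 2.03%, and over all its sites the LowK share was higher at each later day. LowK had 2.03%, 9.51% and 22.4% at days 35, 52 and 56, with intervals that did not overlap. These values rest on 8, 13 and 14 sites, which coincide only in part. Over the 6 sites shared by days 52 and 56 Wdr13 had 10.9% of 183 and 19.7% of 178 reads. That difference was 8.73 points (1.29 to 16.2, Fisher's exact adjusted p = 0.138). MidK1 had 47.2%, 47.2% and 53.4%. MEF2 had 6.75% and MidK2 1.45%, 15.6%, 34.2% and 32.4%, or 1.11% in MEF2 and 1.45%, 9.96%, 27.5% and 25.4% in MidK2 over recurrent sites. The site X:8124278, listed with 34 reads in MidK2 day 22 alone at 94.1%, makes the difference at that day. Of its 31 sites 28 are untranslated. In MidK1 day 35 its 11 sites ran from 36.0 to 65.4%.

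The order of the 7 genes was not the same in the courses. In MidK1 day 56 it ran from Plp2 (80.5%) over Praf2 (53.7%), Wdr13 (53.4%), Gpkow (49.5%), Wdr45 (47.6%) and Porcn (42.0%) to Timm17b (33.4%). There Plp2 was set apart from Praf2, while each further gene overlapped the next in its interval. In LowK day 56 the order was Porcn (34.8%), Plp2 (31.9%), Wdr13 (22.4%), Praf2 (19.4%), Gpkow (16.8%) and Timm17b (15.1%), and every neighbour in it overlapped the next. The median over the genes measured was 49.5% in MidK1 day 56, 20.9% in LowK day 56 and 34.0% in MidK2 day 36, where the medians of all genes measured were 8.80%, 4.76% and 9.33%. Over recurrent sites the medians of the members were 48.0%, 20.9% and 27.0%, while those of all genes were taken over all sites. In other libraries the members did not stand above all genes. Over all sites their median was 2.49% in MEF2, 2.75% in MidK2 day 18 and 13.4% in MidK2 day 22. The medians of all genes were 2.87%, 12.1% and 18.3% there. The 7 genes were proposed with these shares known, so the gap between these medians is a description.

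**Figure D3:**
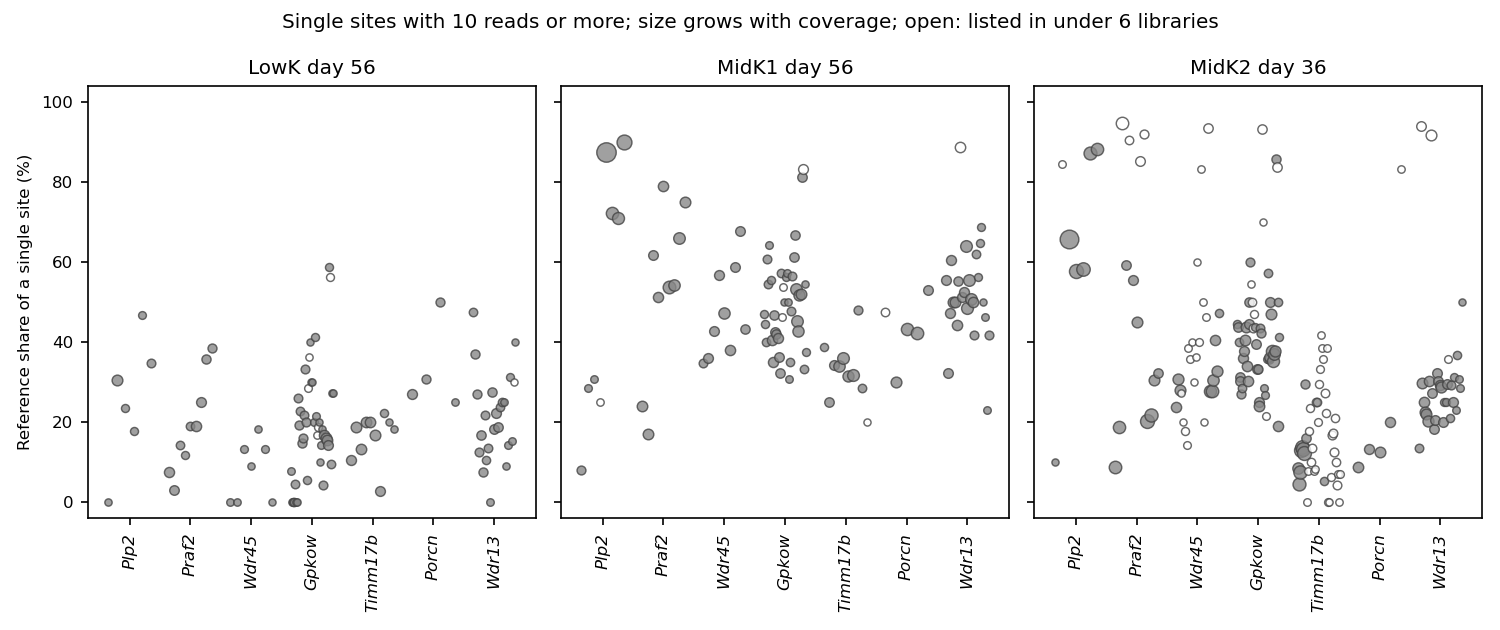
Reference share (%) of single sites with 10 reads or more in LowK day 56, MidK1 day 56 and MidK2 day 36, by gene and, within a gene, in order of position. Point size grows with coverage and open points were listed in fewer than 6 libraries. The open points of Praf2 in MidK2 day 36 stand at 85.3 to 94.9%, the sites of Timm17b stay below 50%, and the intronic Plp2 sites lie below the exonic ones in MidK1 day 56.

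Against the fibroblast library of the same set, differences were taken over the sites listed in both libraries. A gene was called when its Fisher's exact test (two-sided) gave a p under 0.05 after adjustment by Benjamini and Hochberg over all genes of the pair, and the shares differed by at least 20 percentage points. These contrasts were used in choosing the genes, so the counts follow in part from that choice, and nothing is read from their distance to the share of all genes. LowK had 0 of 6, 0 of 5 and 1 of 5 genes called higher at days 35, 52 and 56, where 1.11%, 1.6% and 5.08% of all genes were. The 1 gene was Wdr13, at 24.2 points (95% Newcombe interval 17.9 to 30.9), or 18.1 points with sites of 10 reads or more and 19.7 points against MEF2, neither of which reaches 20. MidK1 had 4, 4 and 6 of 6 called higher, where 9.64%, 13% and 14.6% of all genes were. MidK2 had 0, 2, 4 and 4 of 6 called higher, where 1.46%, 9.85%, 10.6% and 10.6% of all genes were. None was called lower, where at most 0.485% of all genes were (MidK2 day 18). With MEF1 in place of MEF2, the calls of Plp2 and Gpkow in MidK2 day 22 and of Gpkow in MidK2 day 29 ended, at 12.3, 8.07 and 18.5 points.

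The sizes of these differences were uneven among the 7. In MidK1 day 56, Plp2 stood 73.2 points (55.4 to 82.5) above MEF1 and Wdr13 51.8 points (45.9 to 57.1). Wdr45 stood 46.1, Praf2 39.6, Gpkow 36.6 and Timm17b 27.3 points above it. In MidK2 day 36, Plp2 stood 62.9 points (49.9 to 69.1) above MEF2 and Gpkow 36.6. Timm17b stood 8.58 points (5.46 to 11.4) above MEF2 there. The Plp2 values rest on 1 shared site with 28 reads in MEF1 and 36 in MEF2.

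The comparison of MidK1 with LowK at the same day asks how cells with Shield1 differ from cells without it, within the first set of tables. It rests on the same MidK1 shares that were known when the genes were chosen, so it too is a description, and nothing is read from the counts of calls against all genes. All 19 differences over shared sites were above 0. At day 35, 5 of 7 genes were called higher and none lower, where 8.08% and 0.385% of all genes were. At day 52, 4 of 6 were called, where 9.02% of all genes were, and at day 56, 4 of 6, where 8.75% were. The median difference over the members was 41.4, 33.8 and 28.0 points at days 35, 52 and 56, against 2.03, 1.81 and 2.90 points over all genes. Plp2, Praf2, Gpkow and Wdr13 were called at each of the 3 days.

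Plp2 differed most. At day 35 the shared site had 11.4% of 35 reads in LowK and 80.1% of 141 in MidK1, a difference of 68.7 points (52.4 to 77.7). The difference was 54.1 points (45.2 to 61.7) at day 52 and 56.9 points (42.3 to 68.5) at day 56. The 3 intervals overlapped, and the change between them was not tested. In Gpkow the difference was 51.3 points (45.6 to 56.5) at day 35, 30.3 points at day 52 and 27.4 points (21.9 to 32.5) at day 56. Here the interval of day 35 lay above those of the later days. Wdr13 differed by 41.4 points (32.9 to 49.4) at day 35, 39.3 points at day 52 and 28.7 points (22.8 to 34.2) at day 56, and the first and last of these intervals overlapped. In Wdr13 the LowK share over the shared sites was 2.48% at day 35 and 22.4% at day 56.

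Praf2 differed by 23.4 points (17.3 to 29.4) at day 35, 37.4 points (29.8 to 44.6) at day 52 and 34.5 points (27.3 to 41.0) at day 56. Wdr45 had a shared site at day 35 alone, with 23 and 20 reads, where it differed by 55.7 points (28.6 to 74.1). That site was the highest of 3 in MidK1 day 35, where the other Wdr45 sites had 25% of 20 and 0 of 21 reads, and over all its sites the gene stood at 27.9% against 3.45% in LowK. Timm17b and Porcn were called at no day. Timm17b differed by 13.5 points (7.76 to 19.7), 7.46 points (3.81 to 11.4) and 16.9 points (9.90 to 23.5) at days 35, 52 and 56, each under the 20 points needed. Porcn differed by 19.4 points (7.10 to 31.9) at day 35, 7.02 points (−4.31 to 18.0) at day 52 and 4.77 points (−7.43 to 16.2) at day 56. For Porcn a difference of up to 16.2 points at day 56 lies inside the interval.

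**Figure D4:**
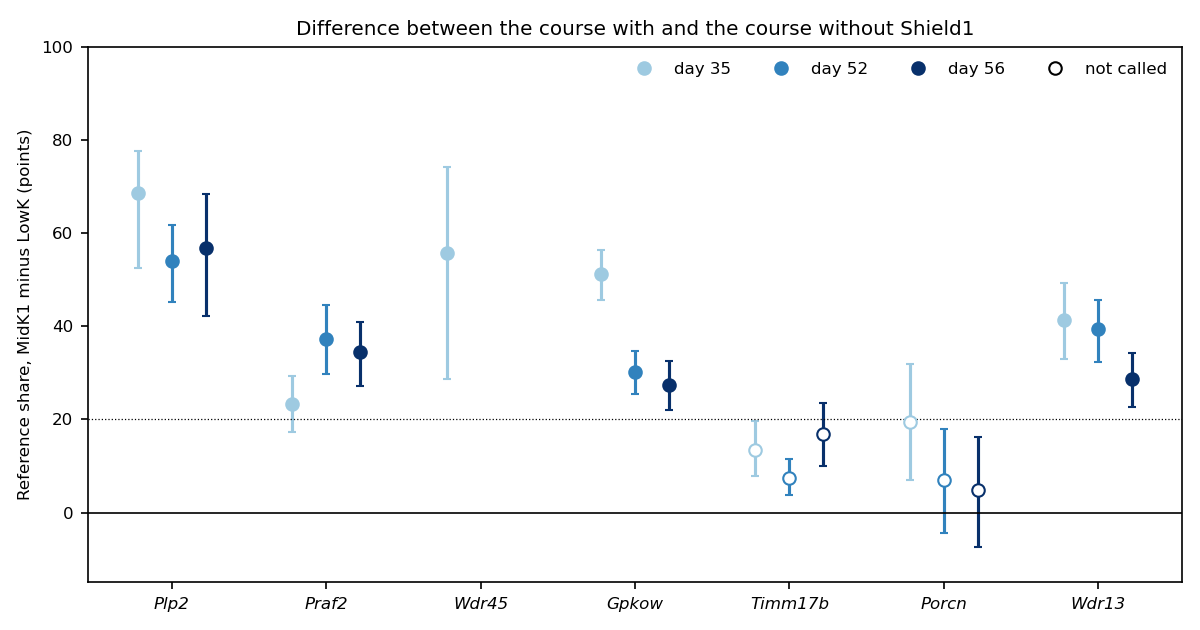
Difference in reference share (percentage points, MidK1 minus LowK) of each gene at days 35, 52 and 56, with 95% Newcombe intervals. Filled points were called, the dotted line marks 20 points, and Wdr45 had a shared site at day 35 alone. Plp2 lies at 54.1 to 68.7 points, while the points of Timm17b and Porcn are open at all 3 days.

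Between neighbouring days of a course, 7 of 47 tests were called, all of them higher at the later day. The shares of all days were known when the genes were chosen, so these tests describe steps between pairs of libraries and say nothing about the choice of the genes. The p-values printed with these steps come from shares used in that choice and are given as description alone. From day 35 to day 52 of LowK, 2 of 6 genes were called, where 1.12% of all genes were. Porcn rose from 2.04% of 49 to 37.2% of 78 reads over 2 sites, by 35.1 points (22.0 to 46.4, Fisher's exact adjusted p = 2.81e-05). Plp2 rose from 11.4% of 35 to 44.4% of 36 reads at 1 site, by 33.0 points (12.2 to 50.4, Fisher's exact adjusted p = 0.0266). This call of Plp2 ended with sites of 10 reads or more, at 19.99 points over 5 sites. Porcn also differed by 18.4 points (7.004 to 28.8, Fisher's exact adjusted p = 0.0142) from day 35 to day 52 of MidK1 and by 8.99 points (2.79 to 15.3, Fisher's exact adjusted p = 0.0183) from day 29 to day 36 of MidK2, under the 20 points needed. From day 52 to day 56 of LowK, 0 of 6 genes were called, where 1.44% of all genes were, and by the same Fisher's exact test only Timm17b had an adjusted p under 0.05, at 10.5 points (6.30 to 15.2, adjusted p = 1.20e-05).

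In MidK1, 1 of 7 genes was called from day 35 to day 52, where 2.35% of all genes were, and 1 of 7 from day 52 to day 56, where 1.55% were. The former was Wdr45, at a single site with 0 of 21 and 9 of 20 reference reads (45.0 points, 20.4 to 65.8, Fisher's exact adjusted p = 0.00408). With sites of 10 reads or more the call of Wdr45 ended, at 4.60 points over 9 sites (Fisher's exact adjusted p = 0.784). The latter was Timm17b, which rose from 13.0% of 384 to 33.4% of 356 reads over 8 sites, by 20.4 points (14.4 to 26.3, Fisher's exact adjusted p = 2.67e-09). At its site with the highest coverage alone the difference was 15.6 points and not called. Gpkow and Wdr13 differed by −6.82 points (−12.5 to −1.11) and 0.113 points (−7.10 to 7.32) from day 35 to day 52, and at day 35 they stood at 50.8% and 47.0% over the shared sites. Praf2 differed by 19.0 points (11.7 to 26.0, Fisher's exact adjusted p = 8.73e-06) over the same step, just under the size needed.

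In MidK2 the 7 genes did not all move at the same steps. From day 18 to day 22, 0 of 7 were called in either direction, where 2.22% of all genes were called higher and 0.317% lower, although all 7 differences were above 0 and those of Timm17b, Gpkow and Porcn had Fisher's exact adjusted p of 1.79e-08, 0.00209 and 0.0278. From day 22 to day 29, 2 of 7 were called higher and none lower, where 0.649% and 0.325% of all genes were. Wdr45 rose by 21.02 points (15.6 to 26.5, Fisher's exact adjusted p = 2.73e-12) over 8 sites and Plp2 by 20.4 points (14.0 to 26.5, Fisher's exact adjusted p = 3.65e-08) over 6. With 10 reads or more the Plp2 difference was 19.6 points, and with 50 or more 12.5 points, so that it was not called. Over the same days Wdr13 differed by 17.8 points (12.4 to 23.3), Praf2 by 11.7 (6.46 to 17.0) and Gpkow by 11.4 (6.88 to 15.8). Each was under the 20 points needed, with Fisher's exact adjusted p of 7.03e-09, 0.00019 and 2.12e-05. Timm17b differed by 3.54 points (−1.28 to 8.37) and Porcn by −4.73 points (−10.1 to 0.819). From day 29 to day 36, 1 of 7 was called higher and none lower, where 0.314% and 0.943% of all genes were. Plp2 rose from 41.0% of 376 to 68.9% of 611 reads over 5 sites, by 27.9 points (21.6 to 34.0, Fisher's exact adjusted p = 1.74e-16). Both shares were known when the genes were chosen, so the p of this step supports nothing about the choice of Plp2. Praf2, Wdr45, Gpkow and Wdr13 had differences of −2.25 to 3.29 points there. Timm17b differed by −5.85 points (−10.2 to −1.71, Fisher's exact adjusted p = 0.0186).

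MidK2 day 36 and MidK1 day 35 both received 30 nM Shield1 and are the closest days of the 2 courses, but their tables have different lower limits, so course and table set cannot be told apart. The shares of both libraries were known when the genes were chosen, so the p-values below are description alone. All 7 differences were below 0, from −22.1 to −2.92 points. Wdr13 was called lower in MidK2 and no member higher, where 1.89% and 1.13% of all genes were. Wdr13 had 47.2% of 394 reads in MidK1 day 35 and 25.1% of 470 in MidK2 day 36, a difference of −22.1 points (−28.3 to −15.7, Fisher's exact adjusted p = 2.86e-10). Gpkow differed by −11.8 points (−17.1 to −6.46, Fisher's exact adjusted p = 0.000131), Plp2 by −11.4 (−18.5 to −3.75) and Timm17b by −10.0 (−16.1 to −4.59), none of which reached 20 points. Praf2 differed by −2.92 points (−8.95 to 2.98).

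Coverage gave an indirect view of how much RNA of each allele was read. Over the sites listed in all libraries of the first set, and per 1000000 reads over all such sites, Gpkow had 1099 variant and 145 reference reads in MEF1 and 1442 variant and 1344 reference reads in MidK1 day 56. Wdr13 had 1519 variant and 0 reference reads in MEF1, 1146 and 295 in LowK day 56, and 1406 and 1479 in MidK1 day 56. In MidK1 day 35 Wdr13 had 717 variant and 620 reference reads. The reference reads of both genes thus stood higher in each of these reprogrammed libraries than in MEF1, while the variant reads stood above those of MEF1 in some and below in others. Praf2 had 1996 variant and 116 reference reads in MEF1 and 1369 and 770 in MidK1 day 56. Timm17b had 2069 and 116 in MEF1 and 2554 and 1234 in MidK1 day 56. These numbers are scaled to the listed sites of the X chromosome, not to the whole library, and the spread between libraries of a kind is unknown.

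The other genes of the same interval, from 7.4 to 8.3 Mb of the X chromosome, were 27 with a site, of which 18 had a value in at least 8 libraries. They were Gm36995, Foxp3, Ccdc22, Gm45208, Tfe3, Gripap1, Otud5, Pim2, Slc35a2, Pqbp1, Pcsk1n, Hdac6, Gm14820, Gm7079, Suv39h1, Rbm3, Ebp and Ftsj1. Tfe3 had 2.46% in MEF1, 16.0% in LowK day 56, 53.0% in MidK1 day 56 and 34.9% in MidK2 day 36, and the deacetylase gene Hdac6 had 2.17%, 29.7%, 38.5% and 26.7%. In LowK and MidK1 day 56 the value of Tfe3 lay between those of the flanking members Praf2 and Timm17b. Of the other genes of the interval, 5 of 17, 4 of 18 and 4 of 14 were called higher in MidK1 than in LowK at days 35, 52 and 56. Over all genes 8.08%, 9.02% and 8.75% were called higher at these days. The 4 genes of the interval called at day 56 were Ftsj1, Gm45208, Gripap1 and Tfe3, of which Gm45208 shares its sites with Wdr45 and Praf2. Further genes of the interval share sites, such as Gm36995 with Ccdc22, so these are not counts of separate reads.

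The interval was not uniform. Suv39h1, a histone methyltransferase gene and the nearest named gene before Wdr13, had 0%, 1.55% and 3.33% in MidK1 at days 35, 52 and 56, where Wdr13 had 47.2 to 53.4%. Rbm3, the nearest named gene beyond Wdr13, had 8.16%, 33.0% and 6.15%, and in the second of these libraries a further site with 78.9% reference reads was listed. Pcsk1n, the nearest named gene beyond Timm17b, had 3.48%, 15.4% and 20.8%. Otud5 and Pqbp1, which lie between Tfe3 and Timm17b, had 23.3% and 22.9% in MidK1 day 56. The plot of genes in their order along the chromosome shows such steps between neighbours. Gm14820 overlaps Suv39h1, and both had 4 reference reads of 258 over 7 sites in MidK1 day 52. Reads of Suv39h1 therefore cannot be told apart from those of Gm14820 there.

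**Figure D5:**
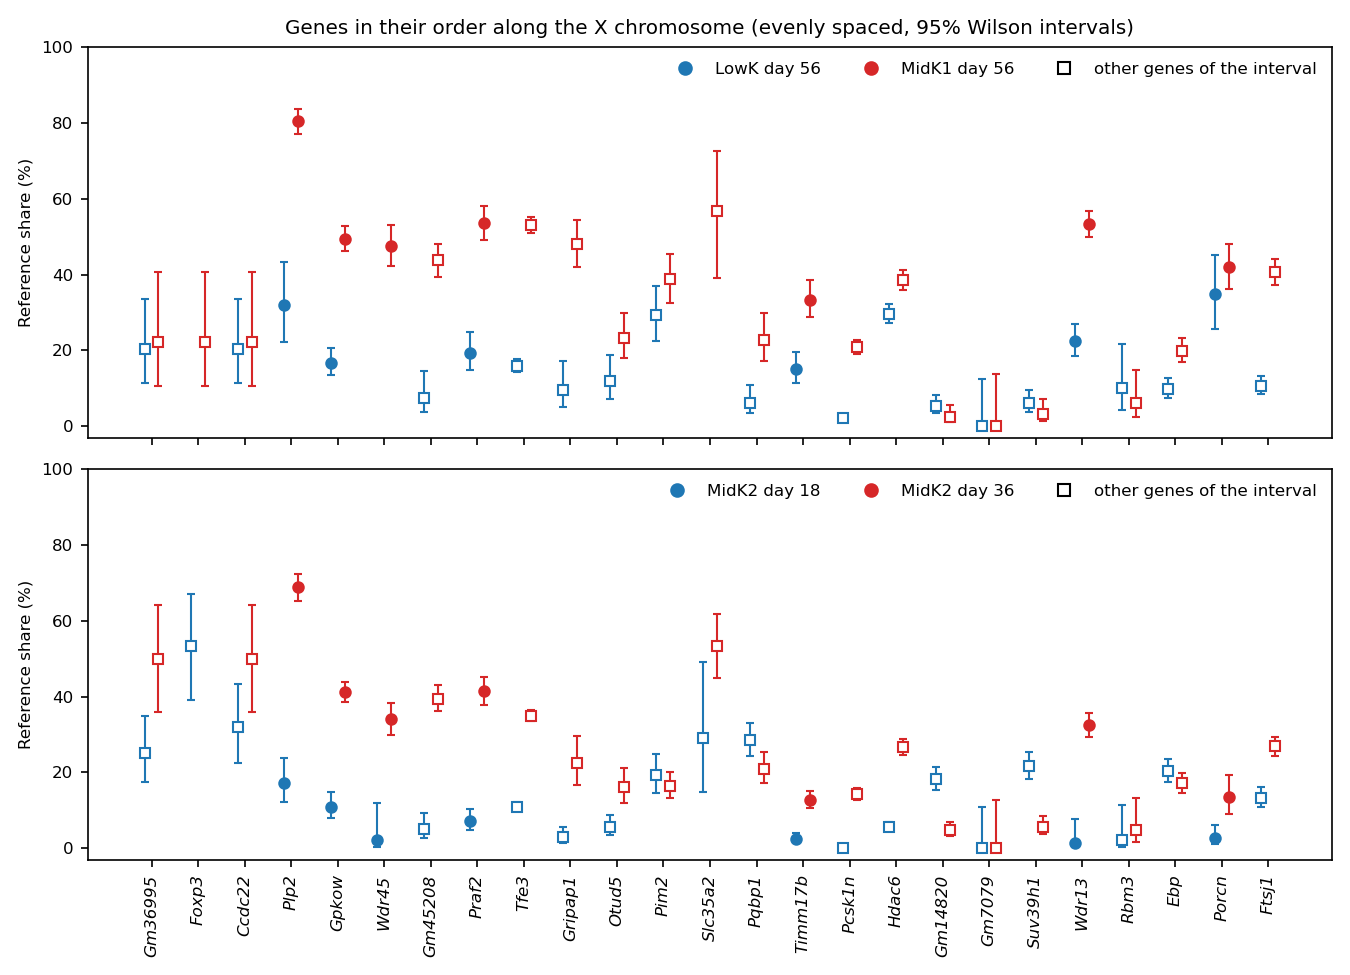
Reference share (%) with 95% Wilson intervals of the 7 genes (filled circles) and of the other named genes of the interval (open squares), in their order along the X chromosome and evenly spaced, for LowK and MidK1 day 56 (upper panel) and MidK2 days 18 and 36 (lower panel). In MidK1 day 56 Plp2 is highest at 80.5%, the genes from Gpkow to Gripap1 lie at 43.8 to 53.7%, and Suv39h1 stands at 3.33% beside Wdr13 at 53.4%.

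Elsewhere on the X chromosome, likeness was measured as the mean absolute difference between a gene's reference share and the median of the members over the 10 reprogrammed libraries. Of 209 genes with 50 reads or more in at least 8 libraries the median was 18.9 points. The 5 nearest were Gpm6b, a membrane proteolipid gene at 166.2 Mb (5.54 points), Uba1, the ubiquitin-activating enzyme gene at 20.7 Mb (6.25), Bcor, a corepressor gene at 12 Mb (7.11), Lamp2, a lysosomal membrane gene at 38.4 Mb (8.42), and Rbmx2, an RNA-binding protein gene at 48.7 Mb (9.09). Gpm6b had 15.6% in LowK day 56, 44.7% in MidK1 day 56 and 35.3% in MidK2 day 36.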

How the data were processed

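Poly(A) RNA of 12 libraries was read in pairs of 76 bases. The authors called variants of the X chromosome in CLC Genomics Workbench (Basic Variant Call), as the series text states, on mm10, per the submitters' processing notes. The sources used here do not give aligner or caller settings. Per the file headers, the deposited tables hold a count of variant reads and a count of all covering reads per site, neither normalised, and the percent of variant reads. The deposited average base quality, a score in 7 of the tables, served only as a filter in an alternative.

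From these, reference shares were summed over single-base sites with at least 20 reads, with 95% Wilson intervals. A site counted for each gene named. Pairs of libraries (21 in all) were compared over shared sites, gene by gene, by Fisher's exact test (two-sided, scipy 1.17.1) with p adjusted by Benjamini and Hochberg over all genes of the pair, and differences have Newcombe intervals. The test was tried on simulated reads. Reads carry no molecular identifiers, and a read over several nearby sites was counted at each of them. Intervals and tests treat these counts as separate reads. Over several sites they therefore understate even the counting error, and they cover no spread between cultures. Where a share is 0, the upper limit given is 3 reads of the coverage. At 5731 of 5731 exonic sites the reference base equalled that of GENCODE M21. Named beside the 7 genes are those of the interval with a value in at least 8 libraries and the 5 of nearest pattern. The members and lists were chosen with earlier results of these data known. Promoters were not used here. Single-base sites alone were used, and insertions and deletions appear only in the closing section. Alternatives changed the read minimum, the sites, the fibroblast library and the size needed for a call. A result of the list of pluripotent and germline genes is not reported here.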

Additional observations from a re-analysis of the deposited data

Results flagged for a closer look

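Wdr13 differed between the 2 courses that received Shield1. Its reference share differed by −22.1 points between MidK2 day 36 and MidK1 day 35, lower in MidK2, by Fisher's exact test as given above. It was the 1 member called there, and in the second set of tables the lower limits of listing differ.

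Insertions and deletions entered no comparison of the report. Among those of the members, 2 in Wdr13 were listed with 20 reads or more in both MEF libraries, and both had reference shares above the interval of the MEF library of their set in several reprogrammed libraries. A deletion of 1 base at X:8123444 was without reference reads in MEF1 (0 of 21) and had 3.70% in MEF2. Reads without the deletion made up 28.2% in LowK day 56 and 47.9%, 44.4% and 39.0% in MidK1 days 35, 52 and 56. An insertion of 1 base at X:8124652 had 9.52% in MEF1 and 4% in MEF2. Reads without the insertion made up 45.2% in LowK day 52, 65.5%, 52.9% and 64.7% in MidK1 days 35, 52 and 56, and 38.5% in MidK2 day 29. The single-base sites of Wdr13 had 47.2 to 53.4% in MidK1 and 22.4% in LowK day 56. In LowK day 35 and day 52 the insertion stood above them, at 23.3% (11.8 to 40.9) against 2.03% (0.871 to 4.67) and at 45.2% (29.2 to 62.2) against 9.51% (6.98 to 12.8). These differences were not tested.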

How the results depend on the processing

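No called member difference changed sign under any alternative run. Of the 46 calls, 40 were kept with a minimum of 10 reads per site, 39 with sites naming 1 gene (the other 7 had no such site in both libraries), and 38 at the site with the highest coverage. All 46 were kept over sites listed in at least 6 libraries, an alternative chosen after seeing the data, as was the use of sites naming 1 gene for neighbouring days and for MidK2 day 36 against MidK1 day 35. Counts of member calls that moved by over 1.5 times were as follows. For LowK against fibroblasts the 1 call became 0 with 10 reads, 0 with 50 reads and 0 at the top site, 4 with 10 points and 2 against the other fibroblast library (without MEF replicate 1). For neighbouring days the 7 calls became 4 with 10 reads, 1 with 50 reads, 3 at the top site and 15 with 10 points. With a minimum of 50 reads, MidK2 against fibroblasts had 0 calls in 8 tests, MidK1 against LowK 1 in 2 tests, and MidK2 day 36 against MidK1 day 35 had 0 in 3. No member of MidK1 against fibroblasts could be tested at 50 reads, so that alternative gives no value. Without MEF replicate 2, calls of MidK2 against fibroblasts went from 10 to 7, and without MEF replicate 1 those of MidK1 went from 14 to 16. The cause was not tested, other than that 42 of the 46 called tests had no site with 50 reads in both libraries. Calls over all genes went from 14 to 1 and to 43 for LowK against fibroblasts with 50 reads and with 10 points. They went from 63 to 20 and 110 for MidK1, from 67 to 40 and 174 for MidK2, from 69 to 31 and 120 for MidK1 against LowK, and from 32 to 8 and 149 for neighbouring days. Neighbouring days also had 21 calls with sites naming 1 gene and 19 at the top site. MidK2 day 36 against MidK1 day 35 went from 8 to 0 with 50 reads and to 5 at the top site. Of the 80 member shares, 70 stayed in their interval over recurrent sites, 68 as the median of single sites, and 45 at the top site. No paired analysis was possible because each reprogrammed group has 1 library, so no replicate number is shared by several samples of the groups compared.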
